A study of Mus musculus with 6 samples.

Results

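The candidate long noncoding RNAs examined here were known to the array only by position. A mouse expression array of the maker Agilent carried probes whose target name is an autosomal interval with a strand, such as chr11:6421951-6429173 followed by F (forward) or R (reverse), in the genome build NCBI37 (mm9) that the array files name. All probes with such a name were taken, which gave 4275 of 56605 probes (7.55%). They covered 3905 combinations of interval and strand, called regions below, out of 47776 distinct target names on the array, and 3093 intervals on the 19 autosomes. Of these intervals, 812 were probed on both strands, 1178 on the forward strand only and 1103 on the reverse strand only. The intervals were 62 to 538251 bases long, with a median of 7328. Many lay close together: when intervals within 50 kb of each other were joined, 1606 loci resulted, of which 829 held a single interval and the fullest held 13. The 174 interval probes on chromosome X were not included. The files give no gene name for an interval and do not state that it lies between genes or is noncoding, so each is called by its coordinates.

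Long intergenic noncoding RNAs are transcripts with little or no coding capacity, made from their own promoters in the stretches between protein-coding genes and often spliced and polyadenylated. They are known to be less abundant and more restricted to particular cell types than messenger RNAs. Some act on chromatin or on neighbouring genes, some scaffold nuclear bodies, and for most no function is known.

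Microglia were from mice labelled male and 10 weeks old, of C57BL/6 background, with 3 arrays for each of 2 genotypes. The controls, PGC-1αf/f, were littermates without Cre, in which a PGC-1α transgene marked by eGFP and dependent on Cre was not switched on. In mPGC-1α mice the same transgene was turned on by the tamoxifen-dependent Cx3cr1-CreERT2. Per the study's methods, tamoxifen was given for 5 consecutive days, 30 days before use. The methods describe it for both genotypes in other experiments, and the labels of these arrays do not mention it. Cx3cr1 is also active in monocytes and macrophages, and cells were selected with magnetic beads against P2RY12. PGC-1α itself coactivates transcription factors that drive the making of mitochondria.

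Levels are given as log2 signal minus the 75th percentile of the same array, so that 0 stands for a bright probe and each unit for a doubling. The targeted gene, Ppargc1a, had levels of 0.19, -0.44 and -1.21 in the controls, against 0.57, 0.28 and 0.08 in mPGC-1α microglia, a difference of 0.80 (limma, adjusted p = 0.306) that was 0.44 without PGC-1αf/f replicate 3. Of 12 microglial markers listed, 6 had a probe, and these were well above background on all 6 arrays. Replicate 3 of either group stood apart. On PGC-1αf/f replicate 3 the mean of the 14 blood leukocyte markers was -1.56, against 0.81 and 1.03 on the other controls and 0.93 to 1.43 on mPGC-1α arrays. The mean of 3 erythroid markers was -2.69 on it, against -0.83 to 0.18 on the other 5 arrays, and that of 8 endothelial and mural markers -4.01, against -3.13 to -2.14. Its correlation with other arrays over the interval probes was 0.929 to 0.968, against 0.965 to 0.989 among the rest. On mPGC-1α replicate 3 none of 4 Y-linked genes was well above background, against all 4 on every other array, which goes against its label of male. Xist, expressed from the inactive X chromosome of females, was well above background on this array and on replicate 2 of either group. The mean level of the Y-linked genes was -2.03 and -1.93 on PGC-1αf/f and mPGC-1α replicate 2, against -0.87, -0.74 and -1.20 on the other 3 arrays with these genes and -5.88 on mPGC-1α replicate 3. The 9 oligodendrocyte markers had a mean of -0.56 to 0.02 on PGC-1αf/f arrays and -1.26 to -0.77 on mPGC-1α arrays. Their part in the results was not tested. For part of the results, differences or bounds are therefore also given without replicate 3 of either group. All arrays shared 1 slide, with PGC-1αf/f in slide row 1 and mPGC-1α in slide row 2, so slide row and genotype cannot be told apart.

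The number of interval probes that the scanner software flagged as well above background, of 4275, was 1132, 1324 and 1518 in PGC-1αf/f and 1240, 1415 and 1372 in mPGC-1α microglia. The mean share was 31.2% ± 3.17 (SD, n = 6 arrays). By the software's looser flag, a signal positive and significant against background, it was 50.5% to 59.2% on the 6 arrays. The lowest count came from the array with the lowest 75th percentile (1012 intensity units) and the highest count from the array with the highest (2138 units). The difference between genotypes, mPGC-1α minus PGC-1αf/f, was 0.413 percentage points (two-sided exact permutation test, p = 0.9, with 0.1 the smallest p that 3 against 3 allows).

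Interval probes were detected less often than the rest of the array and more often than annotated noncoding transcripts. All other probes reached 47.8% ± 2.02 (SD, n = 6 arrays), and the difference, interval minus other probes, was -16.6 percentage points and below 0 on 6 of 6 arrays (two-sided exact sign-flip permutation test, p = 0.0312, the smallest that 6 arrays allow). Probes for curated coding transcripts (accessions starting NM) reached 58.8% ± 1.89. Probes for annotated noncoding transcripts (accessions starting NR or XR) reached 19.9% ± 1.85, which was 11.3 percentage points below the interval probes (same exact test, p = 0.0312). All 6 arrays read the same probes, so these p-values cover the spread between arrays only. As comparisons between kinds of probes, the differences are descriptions. Of the interval probes, 2626 (61.4%) were above background on no array and 1084 (25.4%) on all 6, while the remaining 565 were above it on 1 to 5 arrays. Among all other probes, 46.3% were above background on no array and 42.6% on all 6.

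**Figure D1:**
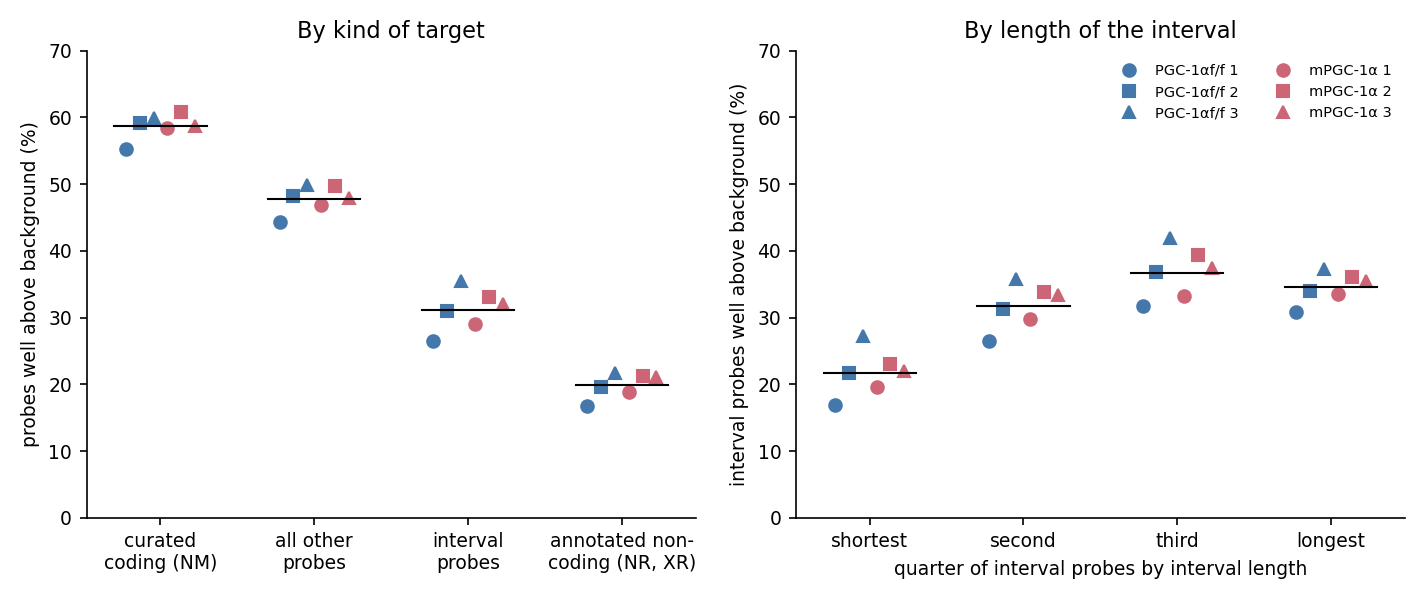
Share of probes well above background (%) on each array, by kind of target (left) and, for the interval probes, by class of interval length (right). Each point is 1 array, with PGC-1αf/f in blue and mPGC-1α in red, and bars are means over 6 arrays. The interval probes (mean 31.2%) lie between all other probes (47.8%) and annotated noncoding transcripts (19.9%), and the class of shortest intervals lies lowest (21.7%).

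Where they were detected, interval probes were dimmer than other detected probes. The 1084 on all 6 arrays had a median level of -0.90, with quartiles at -1.97 and 0.59, and 359 of them (33.1%) were above 0. Of 22288 other probes on all 6 arrays, 52.8% were above 0. The median of the interval probes was the lower on 6 of 6 arrays, with a mean difference of -1.03 ± 0.06 (SD, n = 6 arrays). The spread between replicates was close to that of other probes, with a median SD within a group of 0.23 over 1019 interval probes with a value on every array and 0.21 over 20054 other probes. Levels of different probes are signals, and they also depend on how well each probe binds its target.

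Detection went with the length of the interval. When the probes were split into 4 classes of equal size, those of the shortest intervals, 62 to 1787 bases, were detected at 21.7% ± 3.46 (SD, n = 6 arrays) and those of 1789 to 10701 bases at 31.8% ± 3.29. The classes of 10726 to 25851 bases and of 25852 to 538251 bases reached 36.7% ± 3.80 and 34.5% ± 2.28. The median level of probes on all 6 arrays was -1.12, -1.06, -0.83 and -0.54 from the shortest to the longest class. These are descriptions without a test, since neighbouring intervals and probes of the same interval are not independent.

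The end points of the intervals fell into 2 kinds. For 953 of 3093 intervals (30.8%) the start and the end lay a whole multiple of 25 bases apart, which was the case for 70.1% of intervals probed on both strands and 16.8% of those probed on 1 strand. Probes of such intervals were above background on all 6 arrays in 30.9% of cases, against 21.8% for the others. By length class, from the shortest to the longest, the shares were 4.55% and 16.5%, 27% and 24.8%, 32.1% and 27.2%, and 34% and 24.1%, so the direction turned in the shortest class, which held 44 such probes. This split was made after the values had been seen and was not tested.

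Chromosomes differed in how many of their interval probes were detected. Chromosome 17 was highest, with 91 of 249 probes (36.5%) above background on all 6 arrays, followed by chromosome 6 with 84 of 254 (33.1%) and chromosome 14 with 60 of 186 (32.3%). Chromosome 9 was lowest, with 30 of 193 (15.5%), and the other chromosomes lay between 18.9% and 28.4%. The difference was also present within each genotype: the mean share on chromosome 17 was 42.8% in PGC-1αf/f and 41.6% in mPGC-1α microglia, and on chromosome 9 it was 18.5% and 19.3%. Reverse-strand probes were detected at 32.8% ± 3.42 and forward-strand probes at 29.6% ± 2.94 (SD, n = 6 arrays).

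Intervals probed on both strands mostly gave signal from 1 strand or from neither. Of 812 such intervals, compared through the brightest probe of each strand, 140 had both strands above background on all 6 arrays, 84 the forward strand only and 125 the reverse strand only. In 132 of these 209 intervals with 1 strand on all 6 arrays, the opposite strand was above background on no array. In 323 intervals neither strand was above background on any array. Over the 349 intervals with at least 1 strand on all 6 arrays, the median of forward minus reverse level was -0.51 ± 0.07 (mean over arrays and SD, n = 6), between -0.64 and -0.44. This is a description without a test, since it sets signals of different probes side by side and includes values below background. Among the 140 with both strands detected the median over intervals of the difference in mean level was -0.08, with the forward strand brighter in 67.

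**Figure D2:**
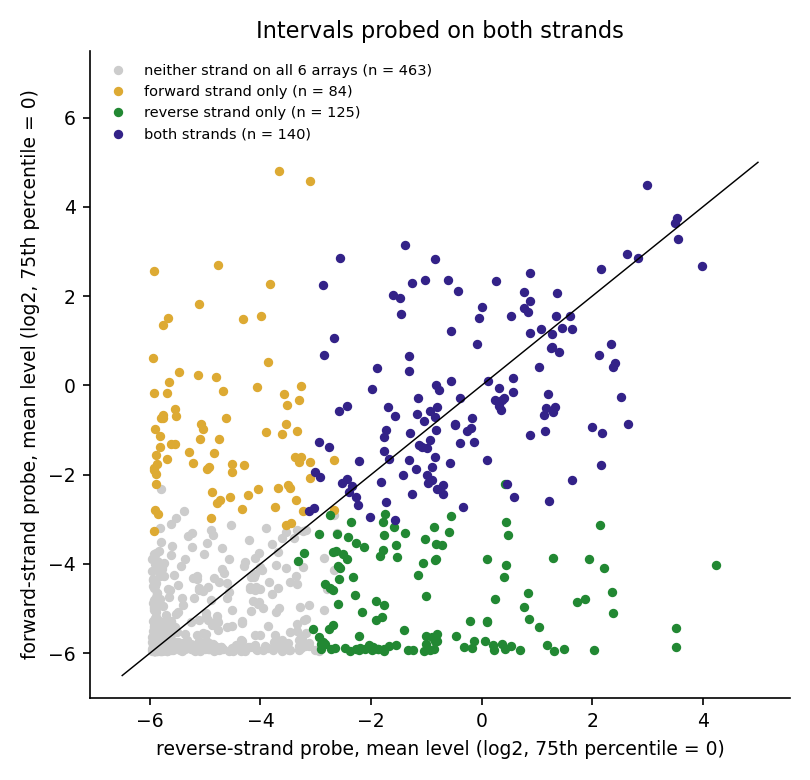
Mean level over 6 arrays (log2, 0 at the 75th percentile) of the forward-strand probe against the reverse-strand probe of the same interval, 1 point for each of 812 intervals. Colours show which strand was above background on all 6 arrays, and the line marks equal levels. Many points lie along the lower and left edges, where 1 strand was bright and the other at background.

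The 5 intervals with the largest difference between strands were taken as examples, chosen by that difference, which in each sets a bright probe against one at or near background. At chr13:28477490-28985604, the reverse-strand probe had a level of 3.52 ± 0.16 (SD, n = 6 arrays) while the forward-strand probe was above background on no array. The same held at chr11:60728207-60745369, where the reverse-strand probe had 3.51 ± 0.13. At chr17:17462450-17488725 the forward strand carried the signal, at 2.56 ± 0.18, and the reverse strand was above background on no array. At chr14:78924115-78938125 the forward-strand probe reached 4.80 ± 0.16 and the reverse-strand probe was above background on 3 of 6 arrays, at a mean of -3.67. At chr17:6602100-6615425 the reverse-strand probe reached 4.23 ± 0.24, and the forward-strand probe was above background only on PGC-1αf/f replicate 3. None of the 5 bright strands passed the test between genotypes (limma, adjusted p from 0.379 to 0.953), and their differences were 0.02 to 0.26.

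The genotype differences of both strands of an interval were set side by side. Over the 118 intervals with both strands above background and measured on all 6 arrays, the correlation between the log2 fold changes of the strands was 0.78, against 0.47 between the levels of the strands over all 140 intervals. The fold changes had the same sign in 87 of the 118 and differed by a median of 0.14. Both probes of an interval were read on the same arrays, so the points share their samples. The labels state that dye was built into cDNA after linear amplification. Which strand that cDNA represents, and so how F and R map to transcripts, is not given in the sources used here.

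The 8 brightest interval probes had levels between 4.23 and 4.80 and differed little between arrays. The brightest was the forward strand of chr14:78924115-78938125, with 4.93, 4.63 and 4.67 in PGC-1αf/f and 4.84, 4.69 and 5.02 in mPGC-1α microglia. The forward strand of chr5:125861675-125880125 had a mean of 4.59 ± 0.12, that of chr14:49314574-49358174 4.57 ± 0.18 and that of chr7:82902248-82955248 4.52 ± 0.13 (SD, n = 6 arrays). The forward strand of chr7:108209996-108216032 had 4.50 ± 0.13, and its second probe was also bright, at 3.73 to 4.06 on the 6 arrays. The reverse strands of chr8:106592650-106603525, at 4.32 ± 0.15, and of chr17:6602100-6615425, at 4.23 ± 0.24, completed the 7 that are named, and the eighth lay on chromosome 18. Neighbours in this order differed by at most 0.20, beside SDs of 0.12 to 0.24. In none of the 7 did genotypes differ by more than 0.14 (limma, adjusted p from 0.633 to 0.989).

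Some regions were measured by several probes. There were 299 regions with more than 1 probe, and in 46 of them at least 2 probes were above background and measured on all 6 arrays. Levels of such probes spread over a median of 1.20 and at most 4.92 and their log2 fold changes over a median of 0.18 and at most 0.86. The fold changes of all such probes of a region shared a sign in 32 of the 46 regions.

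The comparison of mPGC-1α with PGC-1αf/f microglia asks which of these transcripts change when PGC-1α is raised in microglia. Of the interval probes, 1219 were detected throughout at least 1 genotype (3 of 3 arrays), which was the filter, and 1216 could be tested. The median log2 fold change was 0.04, with quartiles at -0.20 and 0.26, beside -0.003 over all 25257 probes tested, and 55.5% of interval probes lay above 0 against 49.7% of all. The median level of the 1084 interval probes on all 6 arrays differed by 0.03 between genotypes (two-sided exact permutation test, p = 0.7), and this difference turned to -0.11 when arrays were aligned on their medians.

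Past an adjusted p of 0.05 (limma, Benjamini-Hochberg over all tested probes), 4 interval probes were higher, against 0.0713% of all probes, and 0 lower, against 0.00792% of all. An unadjusted p under 0.05 was found for 141 higher probes (11.6%, beside 7.53% of all) and 120 lower ones (9.87%, beside 9.21% of all). A difference of at least 2-fold with an unadjusted p under 0.05 was found for 35 higher probes (2.88%, against 2.22% of all) and 10 lower probes (0.822%, against 0.824% of all). Of the 35, 15 were above background on all 6 arrays and 10 on no PGC-1αf/f array, and of the 10 lower probes 8 were above it on all 6. With the test limited to probes on all 6 arrays, the 2-fold counts were 17 (1.57%, against 1.44% of all) and 9 (0.833%, against 0.588%). Among the 1019 probes above background and measured on every array, the groups did not overlap for 122 higher (12%, against 10.1% of all such probes) and 128 lower (12.6%, against 13.8%). The balance of higher and lower probes depended on the scaling: with arrays aligned on their medians, the unadjusted threshold gave 71 higher (5.84%, against 5.14% of all) and 151 lower probes (12.4%, against 12.2%), and the 2-fold threshold 27 (2.22%, against 1.88%) and 20 (1.64%, against 1.57%). In the deposited table without normalization the unadjusted threshold gave 55 (4.52%, against 4.94%) and 30 (2.47%, against 2.03%). When all 6 arrays had to be above background, 0 probes passed the adjusted threshold. Of the 35 higher probes, 25 kept a 2-fold difference without PGC-1αf/f replicate 3 and 30 without mPGC-1α replicate 3. Of the 10 lower probes, 9 and 10 kept it. The calls at the adjusted threshold numbered 0 without PGC-1αf/f replicate 2, mPGC-1α replicate 2 or mPGC-1α replicate 3. They numbered 1 without PGC-1αf/f replicate 1 (0.0745%, against 0.0605% of all) or mPGC-1α replicate 1 (0.0759%, against 0.0423%). Without PGC-1αf/f replicate 3 they numbered 5 (0.414%, against 0.1%). They numbered 0 with the replicate number as a block and 65 with array weights (5.35%, against 2.99% of all).

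**Figure D3:**
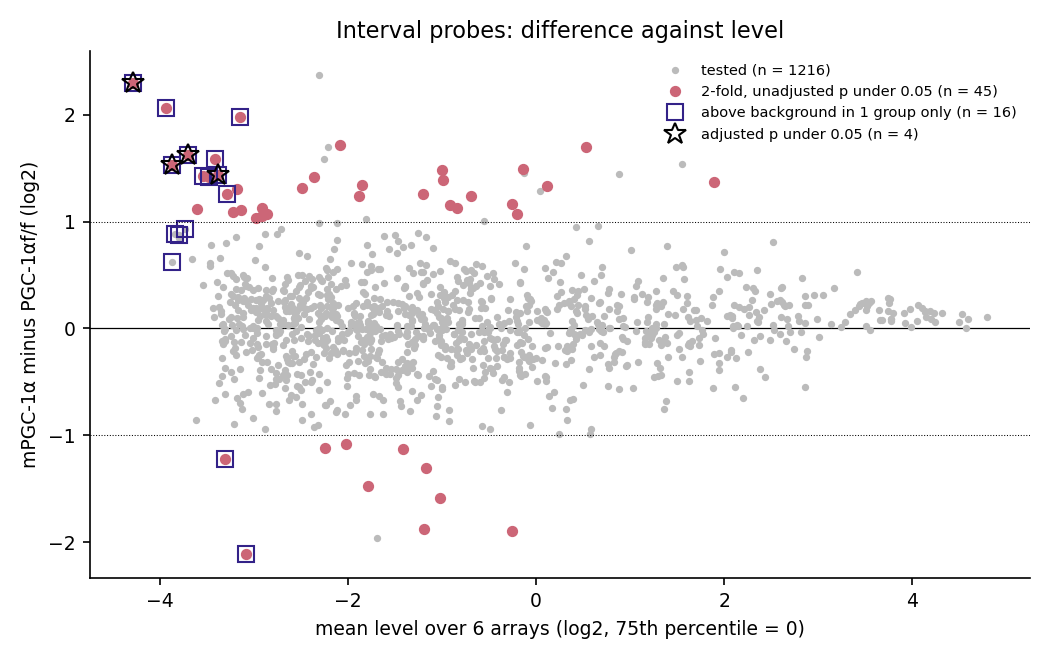
Difference between genotypes (log2, mPGC-1α minus PGC-1αf/f) against mean level over 6 arrays (log2, 0 at the 75th percentile) for the 1216 tested interval probes. Red points are 2-fold with an unadjusted p under 0.05, squares were above background in 1 group only, and stars passed the adjusted threshold. All 4 stars lie at the dim end, and 35 of the 2-fold points lie above 0 and 10 below, against 27 and 20 with arrays aligned on their medians.

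All 4 probes past the adjusted threshold were dim, above background on each mPGC-1α array and on no PGC-1αf/f array. They passed the filter only through the group in which they were high and so had to differ, and their adjusted p-values are given as a description. Only a lower bound of the difference can be given. The forward strand of chr11:6421951-6429173 gave -5.33, -5.48 and -5.48 in PGC-1αf/f and -3.27, -3.11 and -3.03 in mPGC-1α microglia. The probe was at least 1.48-fold higher in mPGC-1α microglia (adjusted p = 0.00486), a bound that was 1.26-fold without PGC-1αf/f replicate 3. Its opposite strand, above background on all 6 arrays, differed by 0.33 (adjusted p = 0.388).

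At chr2:75496518-75496992, the reverse strand gave -4.38, -4.65 and -4.51 against -3.10, -2.86 and -2.70, at least 1.76-fold higher (adjusted p = 0.0332). This short interval lies at the end of chr2:75444518-75497268, whose own reverse-strand probe was higher by 1.31 (adjusted p = 0.0709). That probe was not above background on PGC-1αf/f replicate 1. It too passed the filter only through mPGC-1α microglia, so its values are a description. Of the 9 probes in this locus 4 were tested, and the other 2, at chr2:75481116-75481679 and chr2:75492010-75492464, gave -0.71 and -0.45 (adjusted p = 0.402 and 0.344), which were -0.28 and -0.24 without PGC-1αf/f replicate 3.

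At chr4:116790373-116797823, the forward strand gave -4.75, -4.59 and -4.58 against -3.18, -3.26 and -2.89, at least 1.51-fold higher (adjusted p = 0.0332). A reverse-strand probe of the same interval was higher by 1.07 (adjusted p = 0.0909). That probe was not above background on PGC-1αf/f replicate 1. It passed the filter only through mPGC-1α microglia, so its values are a description. A reverse-strand probe of the overlapping interval chr4:116791819-116798263 was much brighter, at 0.19 to 0.93, and differed by 0.24 (adjusted p = 0.565).

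At chr6:117829576-117834247, the forward strand gave -4.06, -4.01 and -4.25 against -2.69, -2.49 and -2.81, at least 2.05-fold higher (adjusted p = 0.0388).

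Taking detection alone, 14 interval probes (0.327%, against 0.231% of all probes) were above background on all mPGC-1α arrays and no PGC-1αf/f array. The opposite pattern was found for 2 (0.0468%, against 0.0565% of all). All 4 probes past the adjusted threshold were among the 14. For probes detected in 1 group only, here and below, the adjusted p is likewise a description, since the filter was passed through the group with the higher level. In bulk samples, fewer cells of a type and less RNA in each cell cannot be told apart. The count of 14 became 25 without PGC-1αf/f replicate 3 and 28 without mPGC-1α replicate 1, and the count of 2 became 31 without PGC-1αf/f replicate 1, the array with the fewest detected probes. These counts were not set beside shares of all probes, so they do not show a difference from the rest of the array.

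Among the 14, the largest lower bound was at chr3:95454378-95454600, an interval of 223 bases, where the forward-strand probe gave -3.77, -4.23 and -4.43 in PGC-1αf/f and -2.52, -2.31 and -1.65 in mPGC-1α microglia, at least 2.91-fold higher (adjusted p = 0.0709). Without PGC-1αf/f replicate 3 this bound was 2.47-fold. At chr5:22890322-22939119 the reverse strand was at least 2.11-fold higher (adjusted p = 0.0709), and at the overlapping chr5:22887983-22939658 at least 1.91-fold higher (adjusted p = 0.121). An interval that overlaps both, chr5:22928221-22939127, was brighter on the same strand, at -2.08 to -0.34 on the 5 arrays that measured it, and its difference was -0.72 (adjusted p = 0.417, fitted without a value for PGC-1αf/f replicate 1), or -0.07 without PGC-1αf/f replicate 3.

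At chr7:117140887-117152562 both strands were among the 14. The forward-strand probe gave -4.33, -4.26 and -4.18 against -2.49, -2.90 and -3.10, at least 1.82-fold higher (adjusted p = 0.0709), and the reverse-strand probe was at least 1.27-fold higher (adjusted p = 0.0739). At chr10:83181374-83249774, the forward strand gave -2.99, -3.71 and -5.05 against -2.46, -2.70 and -2.80, at least 1.96-fold higher (adjusted p = 0.27). PGC-1αf/f replicate 3 was the lowest of the 6 values, and without it the bound was 1.62-fold.

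Of the 2 probes above background in PGC-1αf/f microglia only, the reverse strand of chr3:18521534-18522194 gave -2.19, -2.49 and -1.41 against -4.63, -4.21 and -3.58. It was at least 3.02-fold lower in mPGC-1α microglia (adjusted p = 0.097). At chr11:3538125-3554450, the reverse strand gave -2.77, -2.55 and -2.76 against -3.98, -4.01 and -3.75, at least 1.95-fold lower (adjusted p = 0.0574). Its forward strand was bright on all 6 arrays, at -0.95 to -0.06, and differed by -0.11 (adjusted p = 0.854).

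**Figure D4:**
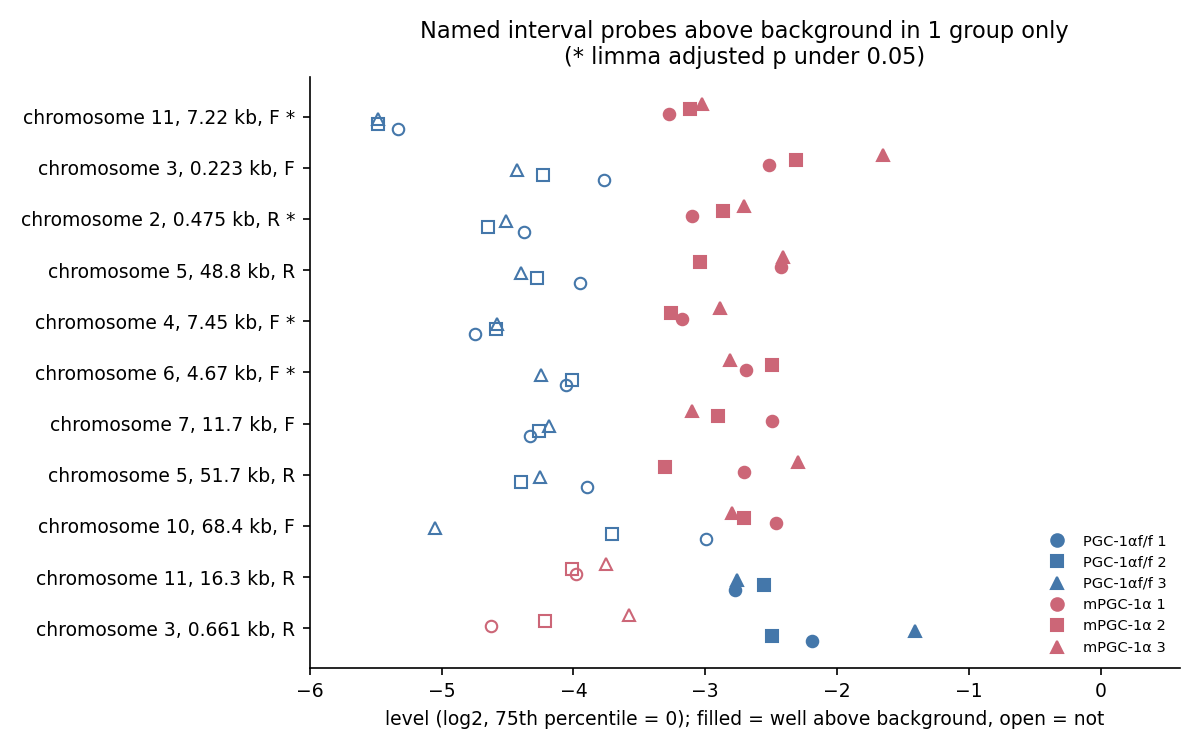
Levels (log2, 0 at the 75th percentile) on each array of the 11 named interval probes that were above background in 1 group only, labelled by chromosome, interval length and strand (F or R). Filled symbols were well above background and open symbols were not, and stars mark an adjusted p under 0.05. Of the 11, 9 were detected in mPGC-1α and 2 in PGC-1αf/f microglia only.

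Some of the probes past 2-fold lay in neighbouring intervals. The 45 interval probes past 2-fold lay in 33 loci, and 9 loci held at least 2 such regions, 20 probes in all, with 1 direction in each of the 9. At chr2:75444518-75497268, chr4:116790373-116798263 and chr5:22801058-22939737, every probe past 2-fold passed the filter only through mPGC-1α microglia. The filter therefore favoured their shared direction. All 9 loci were picked after their values had been seen, and their counts are descriptions.

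A locus of decrease spanned chr1:139713316-139913366. All 6 of its tested probes were lower in mPGC-1α microglia, by 0.68 to 1.11. The reverse-strand probe named for the whole span gave 0.77, 0.58 and 0.85 in PGC-1αf/f and -0.32, -0.55 and 0.11 in mPGC-1α microglia, a difference of -0.99 (SE 0.20, adjusted p = 0.122). Inside it, the forward-strand probe of chr1:139847592-139848243 gave -1.79, -1.66 and -1.62 against -3.04, -3.09 and -2.29. It differed by -1.11 (SE 0.23, adjusted p = 0.13), and that of chr1:139856545-139857204 by -1.08 (SE 0.27, adjusted p = 0.164). The groups did not overlap for these 3 probes. Without mPGC-1α replicate 3, the least reduced of the mPGC-1α arrays, the 3 differences were -1.17, -1.37 and -1.37.

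At chr8:85952719-85958369 both strands were lower. The reverse strand gave 0.59, 0.23 and 1.24 in PGC-1αf/f and -1.77, -0.49 and -1.36 in mPGC-1α microglia. Its difference of -1.89 (SE 0.38, 3.71-fold, adjusted p = 0.124) was the largest decrease among probes on all 6 arrays with groups apart and an unadjusted p under 0.05. The forward strand gave -0.41, -0.53 and 0.27 against -2.08, -1.41 and -1.94, a difference of -1.58 (SE 0.27, adjusted p = 0.097). The groups did not overlap on either strand, and PGC-1αf/f replicate 3 was the highest array on both. Without it the differences were -1.62 and -1.34.

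The other regions with the largest decreases lay apart from these. At chr8:26347473-26348052, the reverse strand gave -0.69, -0.52 and -0.33 against -1.53, -1.66 and -2.26, a difference of -1.30 (SE 0.22, adjusted p = 0.097). At chr4:40202350-40205120, the reverse strand gave -0.80, -0.79 and -0.95 against -2.39, -2.03 and -1.53, a difference of -1.13 (SE 0.23, adjusted p = 0.122). In both, the PGC-1αf/f arrays lay closer together (SD 0.18 and 0.09) than the mPGC-1α arrays (SD 0.39 and 0.43).

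At chr19:4209657-4210475, the reverse strand gave 0.86, 0.98 and 1.31 against 0.05, 0.24 and 0.04 (difference -0.94, SE 0.16, adjusted p = 0.0975). At chr12:85210777-85262127, the reverse strand gave -0.60, 0.11 and 0.44 against -1.26, -0.66 and -0.94 (difference -0.94, SE 0.29, adjusted p = 0.22). Here the groups nearly touched, and a second probe of that region differed by -0.55 (adjusted p = 0.281). The remaining probe of the 10 lay on chromosome 18.

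Among increases, chr1:175654606-175717250 was the locus with the most tested probes. All 9 of its probes, over 3 intervals and both strands, were tested and were higher in mPGC-1α microglia, by 0.71 to 1.41. The probe with 1.41 was not above background on PGC-1αf/f replicate 1 and passed the filter only through mPGC-1α microglia. The others were above background on every array. At chr1:175705225-175717250, the forward strand gave -0.90, -0.46 and -1.13 in PGC-1αf/f and 0.19, 0.23 and 0.56 in mPGC-1α microglia, a difference of 1.16 (SE 0.21, adjusted p = 0.106). At chr1:175660642-175671878, the reverse strand gave -2.29, -2.26 and -3.02 against -1.77, -0.89 and -0.89, a difference of 1.34 (SE 0.31, adjusted p = 0.15), and a brighter probe of that region differed by 0.82. PGC-1αf/f replicate 3 was the lowest array for 8 of the 9 probes, and without it the 2 named differences were 1.01 and 1.09.

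At chr17:39960567-39992817, overlapping intervals behaved unequally. At chr17:39980973-39981876, the reverse strand gave -1.30, -1.68 and -2.07 against -0.65, 0.02 and -0.26, a difference of 1.39 (SE 0.25, adjusted p = 0.11). The forward strand of the adjacent chr17:39982023-39983277 gave -0.41, -0.63 and -0.60 against 0.34, 1.11 and 0.90, a difference of 1.33 (SE 0.22, adjusted p = 0.0958). The other 3 probes were far brighter and moved less. The reverse strand of chr17:39979941-39981793, which overlaps the first, had 2.01 to 2.54 on the 6 arrays and differed by 0.03. The forward strand of chr17:39983902-39985688, measured by 10 spots on each array, had 3.23 to 3.56 and differed by 0.21 (adjusted p = 0.402), and the probe named for the whole span differed by 0.24.

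Over all tested interval probes the largest difference was 2.37, on a probe that is not named here. Among probes above background on all 6 arrays, with groups apart and an unadjusted p under 0.05, the largest increase was at chr19:5841103-5845579. Its forward-strand probe gave -2.74, -2.89 and -3.21 in PGC-1αf/f and -1.45, -1.35 and -0.90 in mPGC-1α microglia, a difference of 1.71 (SE 0.20, 3.28-fold, adjusted p = 0.0574). The forward strand of the interval that contains it, chr19:5771425-5848475, had 2 probes. One was above background in mPGC-1α microglia only, at -5.20, -5.02 and -4.69 against -3.06, -2.45 and -3.21, and was at least 1.73-fold higher (adjusted p = 0.0574). The other was above background on all 6 arrays and differed by 0.87 (adjusted p = 0.118). The remaining tested probes of the locus, at chr19:5795690-5797464 and chr19:5798135-5800557, differed by -0.28 and -0.05. The increase was thus seen on 3 of the 5 tested probes of the locus, 1 of which passed the filter only through mPGC-1α microglia.

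**Figure D5:**
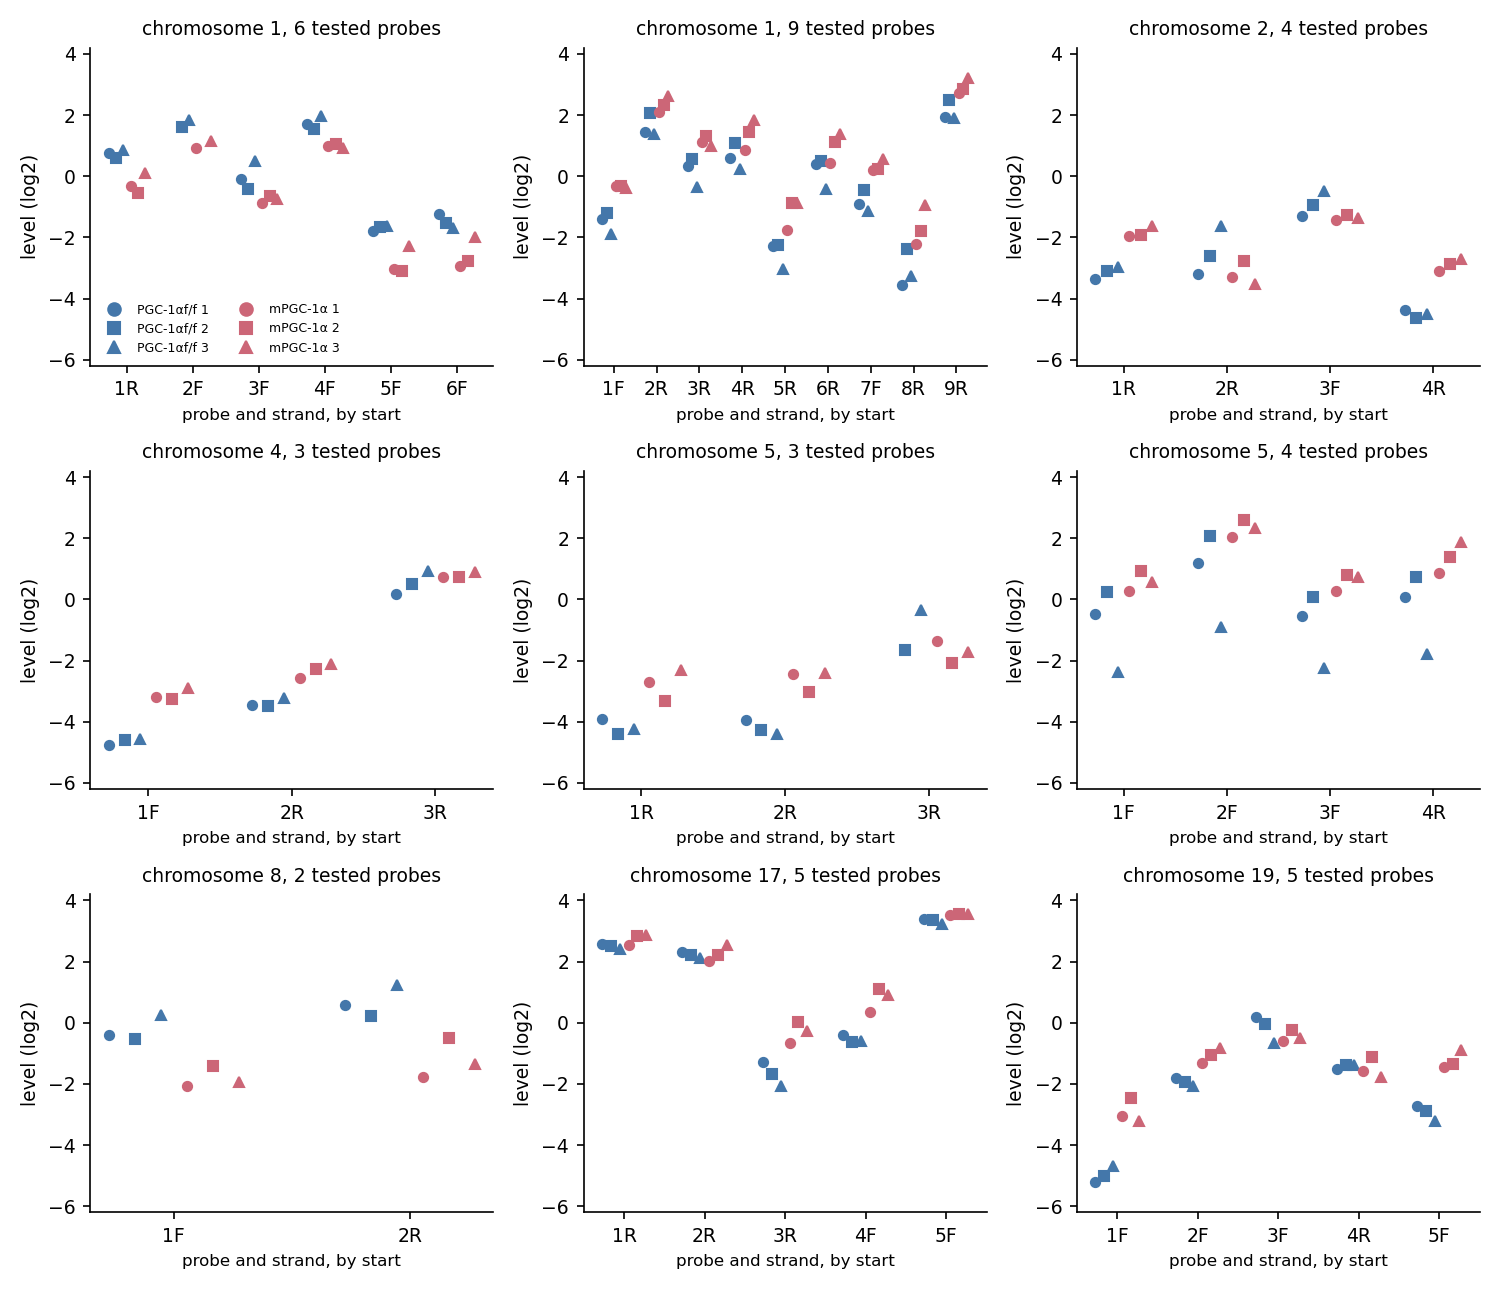
Levels (log2, 0 at the 75th percentile) on each array of every tested probe in the 9 loci that held at least 2 regions past 2-fold, ordered by start and marked by strand (F or R), with PGC-1αf/f in blue and mPGC-1α in red. All 6 probes of the first locus are lower and all 9 of the second are higher in mPGC-1α microglia. In the second locus on chromosome 5, PGC-1αf/f replicate 3 lies far below the other 5 arrays on all 4 probes.

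At 2 further loci 1 array set much of the difference. At chr5:96591892-96606467, all 4 probes were higher in mPGC-1α microglia, by 1.45 to 1.70. The reverse strand gave 0.08, 0.74 and -1.77 in PGC-1αf/f and 0.86, 1.40 and 1.88 in mPGC-1α microglia (adjusted p = 0.262). A forward-strand probe gave -0.53, 0.10 and -2.23 against 0.28, 0.80 and 0.72 (adjusted p = 0.265). PGC-1αf/f replicate 3 lay 3.25 to 4.26-fold below the lowest of the other arrays, and without it the 4 differences fell to between 0.69 and 0.97.

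At chr14:55433382-55452757, the forward strand gave 1.65, 1.98 and -0.01 against 2.08, 2.62 and 3.05, a difference of 1.37 (SE 0.53, adjusted p = 0.273) that was 0.77 without PGC-1αf/f replicate 3. Both reverse-strand probes of that interval were lowest on the same array. Blood leukocyte markers were also lowest on PGC-1αf/f replicate 3, by the values given above. Among the 1019 probes on all 6 arrays, 13 lay more than 2-fold below all others on PGC-1αf/f replicate 3, and none did so on any of the other 5 arrays.

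The remaining named regions with large increases were single. At chr10:92547995-92556102, the forward strand gave -0.97, -2.47 and -1.78 against 0.38, -0.70 and -0.46, a difference of 1.48 (SE 0.43, adjusted p = 0.198). Its groups did not overlap, but arrays of a genotype spread over more than 1 unit. At chr15:61984389-62102500, the forward strand gave -2.10, -1.83 and -1.57 against -1.07, -0.58 and -0.08, a difference of 1.26 (SE 0.27, adjusted p = 0.134). A second probe of that region differed by 0.49, with 0.83 on mPGC-1α replicate 3 and -1.02 to -0.56 on the other arrays, and both reverse-strand probes were above background on no array.

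For comparison with named noncoding RNAs, 57 annotated noncoding genes were listed, of which 41 had a probe and 30 were tested. Whether any interval overlaps these genes was not examined, so both lists may hold the same loci. None passed the adjusted threshold. Of the 30, 4 higher and 3 lower genes had an unadjusted p under 0.05, and the median difference was 0.14, beside 0.04 over the interval probes and -0.003 over all probes tested. The largest differences belonged to Snhg15, a host of small nucleolar RNAs, at 1.31 (adjusted p = 0.097) and Pvt1, a long noncoding neighbour of Myc, at 1.15 (adjusted p = 0.101). Neat1, the scaffold of nuclear paraspeckles, was above background in mPGC-1α microglia only (adjusted p = 0.0958). The lowest was Miat, at -0.87 (adjusted p = 0.253).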

How the data were processed

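Each of 6 arrays held microglia of 1 genotype, grouped and numbered by the labels, which do not say whether replicates were separate mice. The deposited scanner files give, for each spot, the intensity from Feature Extraction 11.5.1.1 after background subtraction and spatial correction, with flags. The deposited series table held the same intensity values, rounded and not normalized between arrays. The authors' methods name GeneSpring for normalization. Control and outlier-flagged spots were left out, log2 intensity was reduced by the array's 75th percentile, and spots of a probe were averaged. A probe was above background where at least 0.5 of its spots carried the well-above-background flag.

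Probes above background on all arrays of a group (25333 of 56605, 25257 with a p) were fitted with limma 3.58.1 in R 4.3.3 (files read with data.table, version 1.17.8), two-sided, with Benjamini-Hochberg adjustment over all of them, after a check on simulated data. A bound sets the brighter group's mean against the dimmer group's mean, taking for each of its arrays the detection floor (the lowest well-above-background signal) or, if larger, the value measured. Shares and medians of an array were tested by exact permutation. Gene symbols came from a RefSeq table (GRCm38.p6) through transcript accessions, with the brightest probe for each gene. Figures and counts used Python 3.11.15 with numpy 2.4.6, pandas 2.3.3 and matplotlib 3.10.9.

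Regions named were all those past the threshold, the 10 highest and 10 lowest differences among probes on all 6 arrays with groups apart and unadjusted p under 0.05, up to 6 in each direction by bound among those detected in 1 group, the 8 brightest, and the 5 intervals with strands furthest apart. Regions on chromosome 18 were counted, not named. The members, lists and rules were chosen with earlier results of these data known, and the lists of Y-linked genes, the joining of loci and the split by interval ends after the values were seen.

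Alternatives were quantile, median and normexp (offset 50, on median spot intensity in place of the mean) normalization, the deposited values as they are, other filters on dim probes, array weights, the replicate number as a block, slide column as a random block, a trended and robust eBayes, a single probe for each region, another detection flag, and leaving out each array. The number of arrays limits the precision, and 0 spots were saturated. P-values measure the spread between these samples.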

Additional observations from a re-analysis of the deposited data

How the results depend on the processing

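The count of interval probes past the adjusted threshold, 4, depended on the processing. It was 1 with quantile normalization, a median shift, no filter on dim probes or eBayes with trend and robust, and 0 with normexp correction, a filter requiring all 6 arrays or the replicate number as a block. It was 19 (1.56%, against 1.81% of all probes tested) with the deposited table without normalization, 19 (1.56%, against 0.546%) with slide column as a random block, and 65 (5.35%, against 2.99%) with array weights. Leaving out 1 array gave 0 to 5, and leaving out both replicates 3, chosen after seeing the data, gave 0. The count past 2-fold, 45, was 25 with normexp correction, 26 with a filter requiring all 6 arrays, 104 without a filter, 36 without both replicates 3 and 41 to 67 without 1 array. The share of 2-fold higher probes fell below that of all probes with normexp correction (1.4%, against 1.63%). It also did so without PGC-1αf/f replicate 1 (3.35%, against 4.33%) or replicate 2 (3.28%, against 3.89%), and lay above it under the other settings. The causes were not tested, beyond the smaller or larger number of probes tested under other filters.

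Same-numbered arrays correlated at 0.139, 0.127 and 0.0187 in their deviations. Arrays of different numbers were not compared in this way, so whether the replicate numbers pair the samples was not decided. Replicates 1 of both groups lay in slide column 1 and replicates 2 in slide column 2. PGC-1αf/f replicate 3 lay in column 4 and mPGC-1α replicate 3 in column 3. With the replicate block, 0 probes passed the adjusted threshold and 51 were 2-fold.

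The shift of the interval median, 0.03, became -0.108 with a median shift, -0.0104 with the deposited table, 0.0969 over all 4275 probes and 0.0549 over the 1219 detected throughout at least 1 genotype, and ran from -0.0161 to 0.0681 when 1 array was left out. A median shift also moved the median of all tested probes to -0.14. The genotype difference in detection, 0.413 percentage points, ran from -1.84 to 2.67 without 1 array. Detection against other probes turned to 11.3 when only annotated noncoding transcripts were the comparison and to -27.6 against coding ones, was -8.55 instead of -16.6 with the looser flag, and ran from -17.1 to -16.4 without 1 array. The strand difference ran from -0.52 to -0.48. With 5 arrays the exact sign-flip test cannot pass the threshold. Probes detected on mPGC-1α arrays only numbered 15 to 28 without 1 array. Those on PGC-1αf/f arrays only numbered 5 with the other flag and 2 to 31 without 1 array. Of 525 values for the 30 probes named for a difference or for detection in 1 group, 0 reversed, 44 lost and 33 gained an adjusted p under 0.05. These 30 probes were picked from the same data, so the 0 reversals are no test of their stability. Of the other 10 tested probes, named as brightest or for their strands, 8 changed sign under at least 1 setting, with differences between -0.16 and 0.32. Signal near background limits the 4 calls.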
